A study of Homo sapiens with 12 samples.

Results

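Histone transcripts were followed in 2 human ovarian cancer cell lines treated with an inhibitor of ATAD2. The members were the genes whose symbol opens with HIST1H to HIST4H, which are the replication-dependent histone genes, together with 8 named variant genes: H2AFX, H2AFY, H2AFZ, H2AFV, H3F3A, H3F3B, H1F0 and H1FX. They came to 81 of the 26475 genes quantified, of which 73 were replication-dependent and 8 variant. Of the 73, there were 6 linker histone H1, 18 H2A, 20 H2B, 14 H3 and 15 H4 genes. GENCODE v29 marks HIST1H2APS1, HIST2H2BA and HIST2H2BC among them as pseudogenes.

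Replication-dependent histone genes lie in clusters, have no introns as a rule and are transcribed mainly in S phase to package newly made DNA. Their messages usually end in a conserved stem-loop and not in a poly(A) tail, and the stem-loop binding protein SLBP holds that end. Variant genes stand alone, are mostly spliced and polyadenylated, and supply chromatin throughout the cell cycle: H3F3A and H3F3B encode histone H3.3, H2AFZ and H2AFV encode H2A.Z, H2AFX encodes the H2A.X of the DNA damage response, H2AFY encodes macroH2A, and H1F0 and H1FX encode linker histones. ATAD2 is an ATPase whose bromodomain binds acetylated histones, and BAY-850 is a small molecule that blocks that binding.

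PA-1 cells and SK-OV-3 cells each gave 3 control libraries, which received DMSO, the solvent, and 3 libraries from cells kept for 48 h in BAY-850 at 5 µM. The labels call both lines ovarian cancer cells, name no genetic change made for the study, and describe the 3 replicates of each group as biological. PA-1 is known as a teratocarcinoma line with features of pluripotent cells and SK-OV-3 as an epithelial line with amplified ERBB2. Between the DMSO libraries, 8 of 9 tested PA-1 markers were lower in SK-OV-3, against 38.1% of all genes tested, and 0 were higher. Of 10 SK-OV-3 markers, 9 were higher there, against 38.3% of all genes, and 1 was lower.

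The libraries held 34544505 to 51840233 expected counts. The third SK-OV-3 BAY-850 library stood apart, with the highest total and with counts for 15634 genes, against 17437 to 18440 genes in the other libraries. It listed 40 of the 73 replication-dependent genes at 0, against 13 to 33 elsewhere. Values for SK-OV-3 without it are therefore given beside the calls among the members and for some other results. The sources differ on how the RNA was selected. The extraction notes and the paper describe oligo-dT beads, whereas the series design describes removal of ribosomal RNA with random priming. Beads that bind poly(A) would lose messages that end in the stem-loop, so how far the levels below reflect the cell or the selection cannot be told apart.

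The stem-loop is printed here because it is the feature that separates the 2 kinds of message. It was searched for in GENCODE v29 transcripts as a stem of 6 base pairs that opens with GG and a loop of 4 bases that opens with TT. Capitals mark the 16 bases of stem, loop and stem, and 5 bases are given on each side, 5′ to 3′ on the strand of the gene, in build GRCh38.
HIST1H2BD (chr6:26158582-26158607, plus strand): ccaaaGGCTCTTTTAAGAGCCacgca
HIST2H2BE (chr1:149886183-149886208, minus strand): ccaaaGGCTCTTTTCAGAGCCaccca
HIST1H2AC (chr6:26124664-26124689, plus strand): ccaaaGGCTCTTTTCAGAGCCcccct
HIST3H2A (chr1:228457364-228457389, minus strand): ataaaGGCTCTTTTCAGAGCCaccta
HIST1H4J (chr6:27824454-27824479, plus strand): taaaaGGCCCTTTTCAGGGCCaccct
HIST2H4A (chr1:149833027-149833052, plus strand): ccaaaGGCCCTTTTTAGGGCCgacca
H2AFX (chr11:119094893-119094918, minus strand): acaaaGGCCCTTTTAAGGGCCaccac

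A stem-loop was present in a transcript model of 30 of the 73 replication-dependent genes and of 1 of the 8 variant genes, H2AFX. The forms followed the class. The stems of all 8 H4 genes that had one were the G and C rich kind shown for HIST1H4J, in 5 genes, and HIST2H4A, in 3 genes, whereas the H2A, H2B and H3 genes carried the kind shown for HIST2H2BE, in 17 genes, or HIST1H2BD, in 5 genes. The H2AFX stem-loop joined the H4 kind of stem to the loop shown for HIST1H2BD, a combination found in no other member, and its transcript ran on for 1044 bases. Many models hold the coding part alone, among them those of HIST1H2BK and HIST1H1C, so the absence of a match in the other 43 genes says only that these letters were not in the model.

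Some replication-dependent models ran on well beyond the stem-loop. It was followed by at least 100 further bases in 21 of the 30 genes, by 1729 in HIST2H2BE, by 1114 in HIST1H2AC and by 390 in HIST3H2A. In HIST1H4J it was followed by 6. The stem-loop fell within the last 100 bases of a transcript in 11 replication-dependent genes, and in 17 (0.0915%) of the 18580 protein-coding genes matched. The signal AATAAA, which directs polyadenylation, was found in the last 50 bases of a transcript in 22 of the 73 replication-dependent genes, in 4 of the 8 variant genes and in 75.0% of the protein-coding genes.

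Levels are given in CPM, the usual depth-scaled count, computed from the expected counts after TMM normalization in edgeR, and genes are ranked by CPM per kb of the median GENCODE transcript. By this measure the variant genes lay far above the replication-dependent genes. The median over the 12 libraries was 233 CPM per kb for the 8 variant genes and 0.293 for the 73 replication-dependent genes. The 8 include H3F3A, which was listed at 0 in all 12 libraries, as described below. The highest replication-dependent gene, HIST1H2BK, at 35.3 CPM per kb on its coding-only model, was below the lowest variant gene with counts, H2AFX, at 57.4. This order is a comparison of levels across genes, and was not tested.

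**Figure D1:**
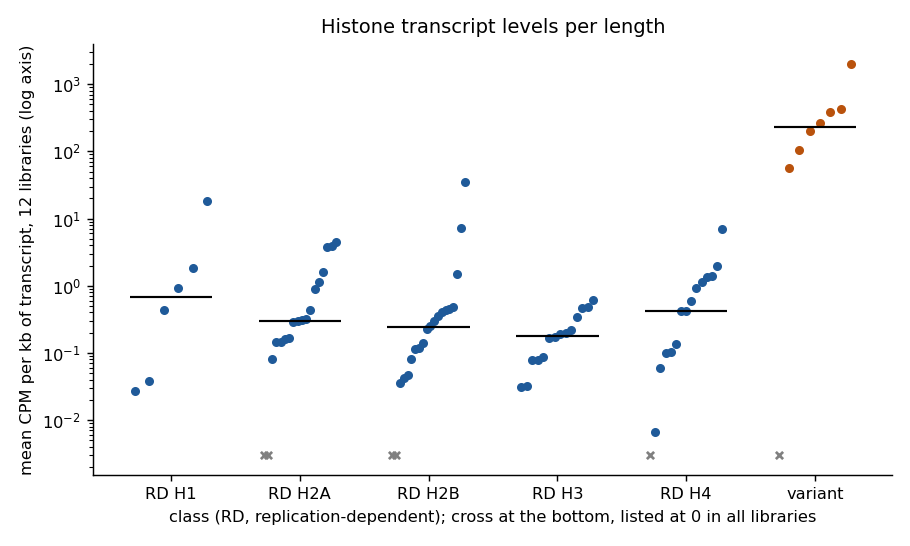
Mean level of each histone gene over 12 libraries in CPM per kb of transcript on a log axis, with replication-dependent (RD) genes by class and the variant genes at the right. Each point is a gene, each black line a median and each grey cross a gene listed at 0 in all libraries; the 7 variant genes with counts lie from 57.4 to 2029 and the replication-dependent genes reach 35.3.

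Among the variant genes the order per kb was H3F3B at 2029, H1F0 at 432, H2AFZ at 383, H1FX at 268, H2AFV at 198, H2AFY at 106 and H2AFX at 57.4 CPM per kb. The place of H1F0 in this order depended on the line, as described below.

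Few replication-dependent genes had appreciable counts. Of the 73, 13 had a mean of at least 1 CPM, 22 had counts in all 12 libraries and 5 were at 0 in all 12. Their counts together came to 49.2 to 71.5 CPM in each library before TMM scaling. They were 1.12% to 1.52% of all counts on the 81 genes in PA-1 and 2.11% to 2.91% in SK-OV-3. The larger share in SK-OV-3 did not mean a larger sum. With DMSO and TMM scaling, the replication-dependent sum averaged 68.0 CPM in PA-1 and 52.9 CPM in SK-OV-3. The variant sum averaged 5524 and 2309 CPM. Both it and the shares above take H3F3A at its listed level of 0. With 3 counts as the limit that a count of 0 allows, a gene at 0 could have reached 0.0559 to 0.0868 CPM, depending on the library.

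The small sum was concentrated in few genes. HIST1H2BK, an H2B gene, had a mean of 13.5 CPM, and HIST1H1C, which encodes linker histone H1.2, had 11.9 CPM. These 2 genes made up 40.4% of the replication-dependent level and the 12 highest genes made up 80.6%. HIST1H2BK, HIST1H1C, HIST1H2BD, HIST2H2BE and HIST1H2AC, which are known to be made also with poly(A) tails, held ranks 1, 2, 3, 5 and 9. This list was written with earlier results of these data known. HIST3H2A at rank 4 and HIST1H4J at rank 6 are not on it. The 14 H3 genes had the lowest sum of the classes, 1.93 CPM, with a highest mean of 0.309 CPM for HIST1H3E, followed by HIST1H3B at 0.254 and HIST1H3H at 0.208. The 22 genes with AATAAA near a transcript end had a median of 0.617 CPM and the other 51 had 0.102. The second group holds HIST1H2BK and HIST1H1C, whose models are coding parts without the message's end.

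Many H2A and H2B genes sit head to head, their starts a short distance apart, and could share 1 promoter region. Of 12 head-to-head pairs of replication-dependent genes with counts on both, 3 were over 10-fold apart per kb and 7 under 3-fold, with a median of 2.24-fold. The 12 include the H3 gene HIST1H3J with HIST1H2BO, which is also paired with HIST1H2AM. They also include the pseudogene HIST2H2BC with HIST2H2AA4, a pair over 10-fold apart. HIST1H2BK, at 35.3 CPM per kb, starts 330 bases from HIST1H2AH, at 0.163 CPM per kb. HIST3H2A, at 4.55, starts 233 bases from HIST3H2BB, at 0.0430. By contrast HIST2H2BE and HIST2H2AC, with 322 bases between them, were at 1.47 and 1.63 CPM per kb. The partners HIST1H2AH, HIST3H2BB and HIST2H2AC were picked for mention after their values were seen.

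Promoters were compared over the 150 bases before the RefSeq start in build GRCh38.p14, which were found for 60 of the 73 replication-dependent and 7 of the 8 variant genes. Those of the most abundant replication-dependent gene and of the 5 variant genes that passed the test in SK-OV-3 (below) are shown 5′ to 3′, with matches to the motifs named next in capitals on either strand.
HIST1H2BK (chr6:27146859-27147008, minus strand): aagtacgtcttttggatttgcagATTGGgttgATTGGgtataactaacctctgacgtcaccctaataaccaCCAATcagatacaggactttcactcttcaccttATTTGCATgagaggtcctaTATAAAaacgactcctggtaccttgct
H2AFZ (chr4:99950276-99950425, minus strand): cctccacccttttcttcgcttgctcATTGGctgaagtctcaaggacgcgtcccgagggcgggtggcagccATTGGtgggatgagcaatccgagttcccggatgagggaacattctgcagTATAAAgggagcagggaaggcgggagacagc
H2AFX (chr11:119095466-119095615, minus strand): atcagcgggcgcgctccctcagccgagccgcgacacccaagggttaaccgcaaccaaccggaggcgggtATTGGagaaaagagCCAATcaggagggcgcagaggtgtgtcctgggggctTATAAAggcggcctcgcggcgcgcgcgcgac
H2AFV (chr7:44848088-44848237, minus strand): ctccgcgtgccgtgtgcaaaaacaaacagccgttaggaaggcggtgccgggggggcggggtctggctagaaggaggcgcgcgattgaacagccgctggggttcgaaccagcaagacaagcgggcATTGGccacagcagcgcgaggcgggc
H2AFY (chr5:135399232-135399381, minus strand): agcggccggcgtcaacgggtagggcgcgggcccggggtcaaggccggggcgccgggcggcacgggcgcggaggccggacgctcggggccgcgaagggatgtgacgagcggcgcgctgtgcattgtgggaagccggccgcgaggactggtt
H1FX (chr3:129316287-129316436, minus strand): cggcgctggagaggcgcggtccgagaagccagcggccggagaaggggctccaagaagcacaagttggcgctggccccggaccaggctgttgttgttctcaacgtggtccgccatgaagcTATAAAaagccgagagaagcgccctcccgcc

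The motif CCAAT, the site of the factor NF-Y, was in the window of 6 of 6 H1, 16 of 16 H2A, 13 of 13 H2B and 12 of 12 H3 replication-dependent genes, but in 3 of 13 H4 genes (23.1%). The windows are not all separate: HIST1H3D and HIST1H2AD have the same one. Copies such as HIST2H4A and HIST2H4B are counted apart though their windows share sequence. CCAAT was in 4 of 7 variant windows and in 24.4% of all 27305 windows. The octamer ATTTGCAT, bound by OCT1, was in 9 of 13 H2B and 5 of 16 H2A windows, some of which read the same DNA from both sides, and in 0.985% of all windows. TATAAA was in 35 of 60 replication-dependent and 4 of 7 variant windows, against 7.05% of all. TTTGAA, the CHR element, was in 12 of 60 and 0 of 7, against 7.44%, and the E2F-like TTTNNCGC was in 8 of 60 and 0 of 7, against 3.74%. A match is a run of letters and was not tested as a binding site. Of the 4 genes lower in SK-OV-3, H2AFX and H2AFZ both had 2 CCAAT matches and 1 TATAAA match, H2AFV had 1 CCAAT match and H2AFY had 0 matches to any of the motifs. H1FX, which was higher, had 1 TATAAA match and 0 CCAAT matches.

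The first comparison asked what BAY-850 did to these transcripts in PA-1. No histone gene passed the test there. H3F3B lay lower in all 3 treated libraries and HIST1H2BK higher, both with adjusted p above 0.05. In edgeR's quasi-likelihood fit, with p adjusted by Benjamini-Hochberg across 15212 genes, the calls were 0 of 25 tested replication-dependent and 0 of 7 tested variant genes, while 2.48% of all genes were called lower and 4.65% higher. At an unadjusted p under 0.05, 2 replication-dependent genes were lower, 1 was higher and 1 variant gene was lower. Among all 15212 genes, 1693 were lower and 1925 higher at that unadjusted p. DESeq2 called 1 replication-dependent gene higher (HIST1H2BK) and 1 variant gene lower (H3F3B), and limma-voom called 0.

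In PA-1, H3F3B had 2186, 2069 and 2015 CPM with DMSO and 1948, 1789 and 1918 CPM with BAY-850. The groups did not overlap, and its log2 fold change was -0.15 ± 0.05 (SE, n = 3 against 3, adjusted p = 0.0962 by edgeR's quasi-likelihood test). Scaling by library size alone gave -0.18 with an adjusted p of 0.043, and DESeq2 gave -0.15 with 0.0377.

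In PA-1, HIST1H2BK had 16.9, 17.5 and 16.4 CPM with DMSO and 18.9, 20.2 and 24.5 CPM with BAY-850. All treated libraries lay above all control libraries, with a log2 fold change of 0.32 ± 0.10 (SE, edgeR adjusted p = 0.0715). The call changed with single steps: DESeq2 gave an adjusted p of 0.0396, no filter on low counts gave 0.0289, and without the first PA-1 BAY-850 library it was 0.0499. In SK-OV-3 the same gene had 8.77, 7.15 and 8.45 CPM with DMSO and 7.40, 6.76 and 8.45 CPM with BAY-850, which overlapped, with a log2 fold change of -0.09 ± 0.16 (edgeR adjusted p = 0.737), and -0.20 without the third BAY-850 library. The test of the difference between the lines gave -0.43 ± 0.19 with an edgeR adjusted p of 0.144, and -0.52 with 0.0645 without that library. Most of the HIST1H2BK model is shared with other genes, as described below.

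H1F0 in PA-1 had 2177, 2022 and 1928 CPM with DMSO against 2109, 1757 and 1708 CPM with BAY-850, which overlapped, at -0.13 ± 0.07 (SE, edgeR adjusted p = 0.272). Without the first PA-1 BAY-850 library, the one that overlapped, its log2 fold change was -0.24 with an adjusted p of 0.0329. The log2 fold changes of the other tested variant genes in PA-1 ran from -0.13 for H2AFZ to 0.07 for H2AFY. The median was -0.09 over 7 variant genes, 0.03 over 25 replication-dependent genes and -0.0019 over all genes tested.

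**Figure D2:**
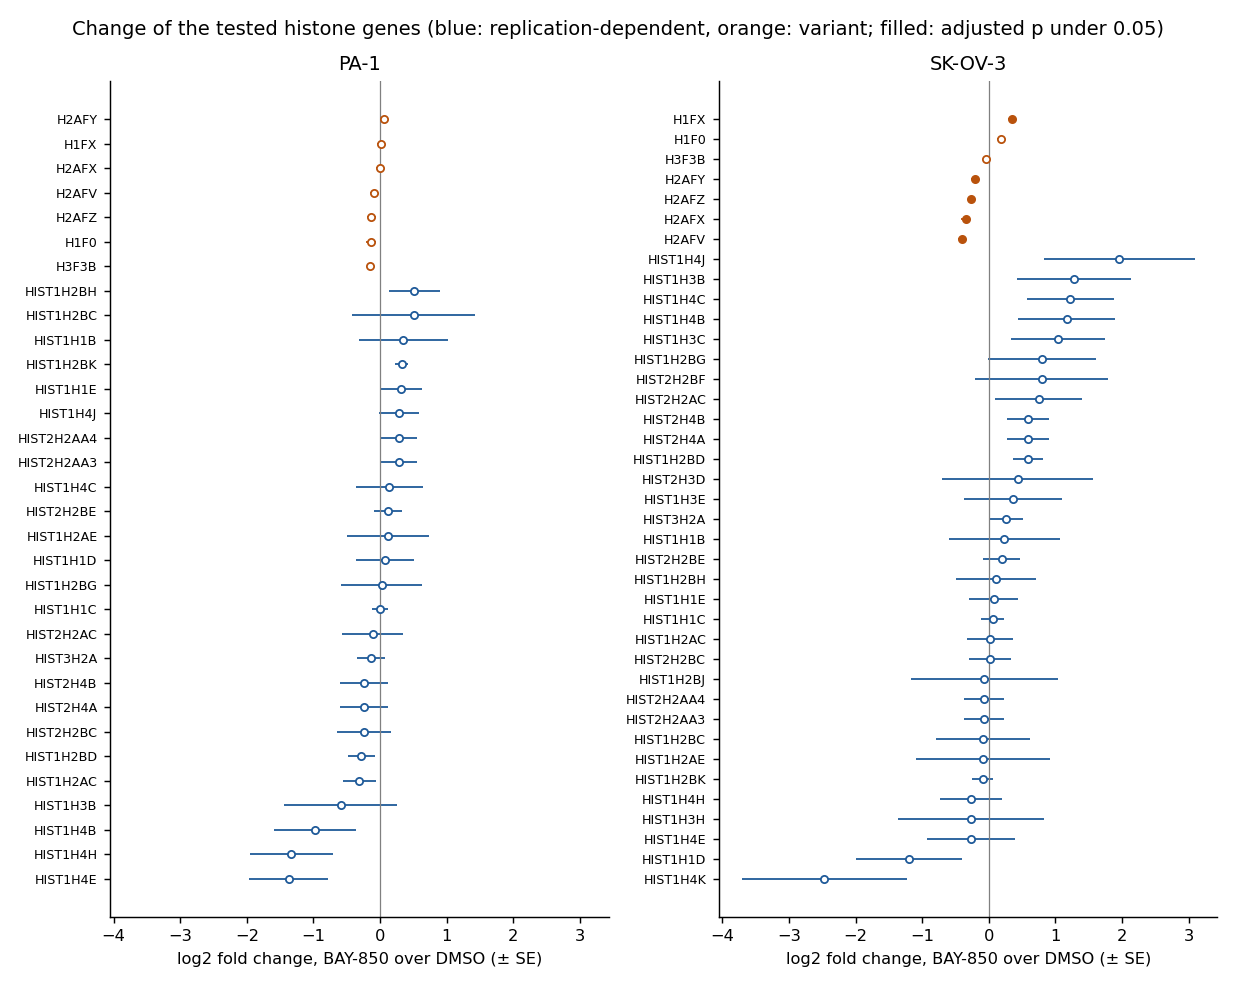
Log2 fold change of BAY-850 over DMSO with its standard error for each tested histone gene in PA-1 (left) and SK-OV-3 (right), with filled points for an adjusted p under 0.05 in edgeR. In PA-1 no point is filled; in SK-OV-3 the filled points are the variant genes H1FX at 0.34, H2AFY at -0.21, H2AFZ at -0.26, H2AFX at -0.35 and H2AFV at -0.41, while the replication-dependent points have wide bars.

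In SK-OV-3, 5 of the 7 tested variant genes passed the test and 0 of the replication-dependent genes did. The median standard error on the log2 scale was 0.0548 for the variant genes and 0.659 for the replication-dependent genes. Changes of the size seen in the variant genes could thus go uncalled among the replication-dependent genes. All 4 H2A variants among the members were lower with BAY-850, by 1.15-fold to 1.33-fold, and the linker histone gene H1FX was 1.27-fold higher. edgeR called 4 of 7 tested variant genes lower, against 9.56% of all 15348 genes tested, and 1 of 7 higher, against 10.8% of all genes. It called 0 of 32 tested replication-dependent genes. At an unadjusted p under 0.05, 0 of these were lower and 1 was higher, DESeq2 called 0, and limma-voom called 1 higher, HIST1H4J, whose reads are divided with a copy as described below. Among all 15348 genes, 2484 were lower and 2632 higher at an unadjusted p under 0.05.

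H2AFV, a gene for H2A.Z, changed most of the variants. Its levels in SK-OV-3 were 114, 117 and 114 CPM with DMSO and 87.5, 85.5 and 84.7 CPM with BAY-850. The groups were well separated, with a log2 fold change of -0.41 ± 0.05 (SE, n = 3 against 3, edgeR adjusted p = 2.71e-04). Over all alternatives it ran from -0.42 to -0.39 and kept its call, and without the third BAY-850 library it was -0.41.

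H2AFZ, the other gene for H2A.Z, had 499.7, 448 and 444 CPM with DMSO and 382, 396 and 375 CPM with BAY-850 in SK-OV-3. Every treated library was below every control library, with a log2 fold change of -0.26 ± 0.05 (edgeR adjusted p = 0.00638). Without the third BAY-850 library the change was -0.26 with an adjusted p of 0.00823.

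H2AFX, which encodes the histone phosphorylated at DNA breaks, had 119, 115 and 109 CPM with DMSO and 96.1, 92.1 and 79.4 CPM with BAY-850. The groups did not overlap, and the lowest value was that of the third BAY-850 library. The log2 fold change was -0.35 ± 0.07 (edgeR adjusted p = 0.0054), and without that library it was -0.28 with an adjusted p of 0.00582.

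H2AFY, which encodes macroH2A, had 175, 172 and 171 CPM with DMSO and 142, 156 and 147 CPM with BAY-850. The groups did not overlap, and the log2 fold change was -0.21 ± 0.05 (edgeR adjusted p = 0.0173). Without the third BAY-850 library it was -0.21 with an adjusted p of 0.0155. This was the least stable of the calls. The adjusted p was 0.0758 without the second DMSO library, 0.0534 without the third DMSO library and 0.0878 without the first BAY-850 library, at log2 fold changes of -0.21, -0.21 and -0.17, and removing a trend with transcript length gave -0.15 with an adjusted p of 0.111.

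H1FX, a linker histone gene, went the other way. Its levels were 167, 150.4 and 162 CPM with DMSO and 205, 207 and 190.5 CPM with BAY-850. All treated libraries were above all controls, with a log2 fold change of 0.34 ± 0.06 (edgeR adjusted p = 0.00138) and 0.37 without the third BAY-850 library. The other linker histone variant, H1F0, had 68.6, 68.2 and 73.1 CPM with DMSO and 75.6, 83.5 and 77.7 CPM with BAY-850. These did not overlap either, but the adjusted p missed 0.05 (log2 fold change 0.19 ± 0.06, edgeR adjusted p = 0.054), and it was 0.0355 in DESeq2. Without the third BAY-850 library it was 0.0546, at a log2 fold change of 0.19.

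H3F3B was at 1266, 1199 and 1174 CPM with DMSO and 1180, 1208 and 1116 CPM with BAY-850 in SK-OV-3. These overlapped, at -0.04 ± 0.04 (SE, edgeR adjusted p = 0.555), and -0.02 without the third BAY-850 library.

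**Figure D3:**
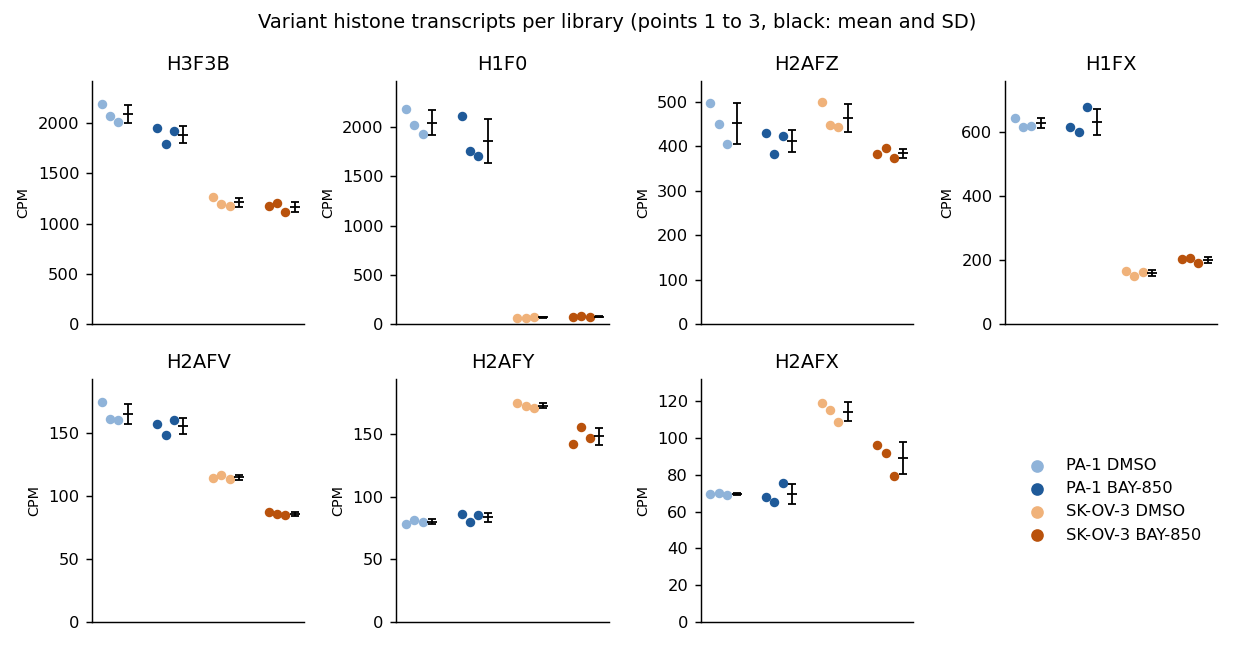
Level of 7 variant histone genes in CPM in each of the 12 libraries, coloured by group, with the mean and SD of 3 libraries in black. H2AFV, H2AFX, H2AFY and H2AFZ lie lower with BAY-850 in SK-OV-3, H1FX lies higher there, and H1F0 lies between 1708 and 2177 CPM in PA-1 and between 68.2 and 83.5 CPM in SK-OV-3.

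The H3.3 gene H3F3A was listed at 0 in all 12 libraries, which leaves its level unmeasured in this table. The processed pseudogene H3F3AP4, which is no member by symbol, held 14414 to 20847 expected counts per library. All 382 stretches of 30 bases in its GENCODE transcript also occur in H3F3A, so reads in that part of H3F3A and reads of H3F3AP4 cannot be told apart. That part is 12.3% of the 3112 stretches of H3F3A, and why the rest of H3F3A had no counts was not tested. Taken as 1 row, the sum of both had 453, 427 and 428 CPM with DMSO and 355, 365 and 388 CPM with BAY-850 in SK-OV-3. All treated libraries were below all controls, with a log2 fold change of -0.23 ± 0.06 (edgeR adjusted p = 0.0136) and -0.28 without the third BAY-850 library. In PA-1 the sum overlapped between the groups, at -0.01 ± 0.05 (edgeR adjusted p = 0.935), and the difference between the lines was -0.23 ± 0.07 (edgeR adjusted p = 0.0482). This gene pair was picked after its values were seen.

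**Figure D4:**
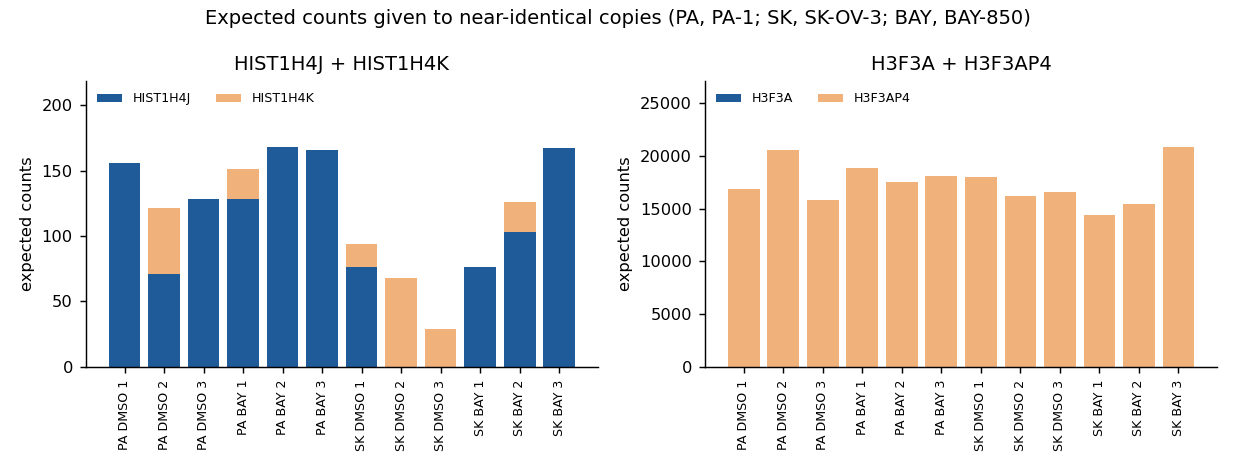
Expected counts, stacked for each library, of 2 pairs of genes that share sequence, with the libraries of PA-1 (PA) and SK-OV-3 (SK) in order. For HIST1H4J and HIST1H4K the division switches between libraries, as in SK-OV-3 DMSO where HIST1H4J has 75.9, 0 and 0; for H3F3A and H3F3AP4 all 14414 to 20847 counts stand on H3F3AP4.

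Several replication-dependent genes have copies that share their sequence, and their single rows are uncertain. Of the 352 stretches of 30 bases in HIST1H2BK, the most abundant of these genes, 306 (86.9%) also occur in another gene. Its row therefore also depends on how shared reads were divided. HIST2H2AA3 with HIST2H2AA4, HIST2H3A with HIST2H3C, and HIST2H4A with HIST2H4B had identical values in every library, as an even division of shared reads gives. All stretches of 30 bases of HIST1H4K occur in HIST1H4J. HIST1H4J had 75.9, 0 and 0 counts with DMSO in SK-OV-3 and 76, 102.9 and 167 with BAY-850, while HIST1H4K had 18.1, 68 and 29 and then 0, 23.1 and 0. The single rows moved in opposite directions, so only their sum is used here. It was 94, 68 and 29 counts with DMSO and 76, 126 and 167 with BAY-850, which overlapped, with a log2 fold change of 0.71 ± 0.42 (edgeR adjusted p = 0.268) and 0.56 without the third BAY-850 library.

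HIST2H4A and HIST2H4B, 2 copies of an H4 gene on chromosome 1, had 1.33, 1.44 and 1.78 CPM each with DMSO and 2.52, 2.20 and 2.05 CPM each with BAY-850 in SK-OV-3. The groups did not overlap. As 1 row, their log2 fold change was 0.59 ± 0.22 with an edgeR adjusted p of 0.0812. Without the third BAY-850 library it was 0.64 ± 0.20 and passed the test, with an adjusted p of 0.0356, whereas the single rows, at 0.64 each, had an adjusted p of 0.125.

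HIST1H2BD was the replication-dependent gene nearest to a call by its own row in SK-OV-3, at 4.01, 4.37 and 4.41 CPM with DMSO and 5.11, 5.32 and 8.47 CPM with BAY-850. The groups did not overlap, but 1 library, the third BAY-850 library, was far above the others. The log2 fold change was 0.59 ± 0.23 (edgeR adjusted p = 0.0926) and fell to 0.29 (adjusted p = 0.226) without it. In PA-1 the gene had 4.26, 3.99 and 5.38 CPM against 2.93, 4.14 and 4.13 CPM, at -0.28 ± 0.20 (SE, edgeR adjusted p = 0.427).

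HIST1H1C passed the test in neither line. In PA-1 it had 15.4, 14.2 and 13.6 CPM with DMSO and 13.2, 13.1 and 16.7 CPM with BAY-850, at 0.00 ± 0.11 (SE, edgeR adjusted p = 0.997). In SK-OV-3 it had 10.5, 8.92 and 8.32 against 8.22, 8.69 and 11.6 CPM, at 0.06 ± 0.17 (SE, edgeR adjusted p = 0.851), and the sign turned, to -0.13, without the third BAY-850 library (adjusted p = 0.54). Both sets of groups overlapped. HIST3H2A, HIST2H2BE, HIST1H2AC, HIST1H1E, HIST1H1D and the H3 genes passed no test in either line. The standard errors of the H3 genes were large: in SK-OV-3, HIST1H3B was at 1.28 ± 0.86, HIST1H3E at 0.36 ± 0.73 and HIST1H3H at -0.27 ± 1.10 on the log2 scale. Without the third BAY-850 library they were at 0.71, 0.18 and 0.33, so that the sign of HIST1H3H rested on that library. HIST2H2BE went from 0.19 to 0.41, with an adjusted p of 0.203.

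Over the 32 tested replication-dependent genes in SK-OV-3 the median log2 fold change was 0.15, with 11 below 0. It was -0.21 over 7 variant genes, with 5 below 0, and -0.0091 over all genes tested. When the third BAY-850 library was left out, 40 replication-dependent genes could be tested, with 0 called and a median of 0.09. The members of these lists were known when they were chosen and include copies, so the medians are a description. In PA-1 12 of 25 replication-dependent and 5 of 7 variant genes were below 0.

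Sums over each class gave the replication-dependent level with less counting noise. The sum over all 73 genes in PA-1 was 74.0, 62.2 and 67.9 CPM with DMSO and 66.6, 67.6 and 78.0 CPM with BAY-850. In SK-OV-3 it was 58.9, 51.2 and 48.4 CPM with DMSO and 57.3, 57.6 and 62.1 CPM with BAY-850. Both pairs of groups overlapped, with log2 ratios of the means of 0.06 and 0.16, and the second was 0.12 without the third BAY-850 library. In PA-1 the sign turned, to -0.09, without the most abundant gene of each class, and it was -0.0036 without the second DMSO library and -0.02 without the third BAY-850 library.

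Of the 5 classes, the H4 sum in SK-OV-3 separated the groups. It was 8.50, 7.49 and 6.12 CPM with DMSO and 11.4, 10.2 and 10.6 CPM with BAY-850, a log2 ratio of 0.54, and 0.55 without the third BAY-850 library. Without HIST1H4J and its copy HIST1H4K it was 6.14, 5.69 and 5.37 CPM against 9.5, 7.25 and 7.52 CPM, a log2 ratio of 0.50. In PA-1 the H4 sums overlapped, with a log2 ratio of -0.19. Without HIST1H4J and HIST1H4K they did not overlap, at 6.88, 4.21 and 4.10 CPM with DMSO and 4.05, 3.91 and 2.61 CPM with BAY-850. The log2 ratio was -0.52, or -0.35 without the third PA-1 BAY-850 library. There 1 DMSO library lay well above the others, and the nearest DMSO and BAY-850 libraries were almost level. The H1, H2A, H2B and H3 sums overlapped between treatments in both lines. With the most abundant gene of each class left out, the H2B sum and the sum over all classes also lay above the controls in SK-OV-3, at log2 ratios of 0.30 and 0.17, and without the third BAY-850 library at 0.18 and 0.19. No test was made of these sums, and where several sums of 3 libraries a group are examined, groups can separate by chance. In bulk cultures a change in the share of cells in S phase and a change in histone message per cell cannot be told apart.

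**Figure D5:**
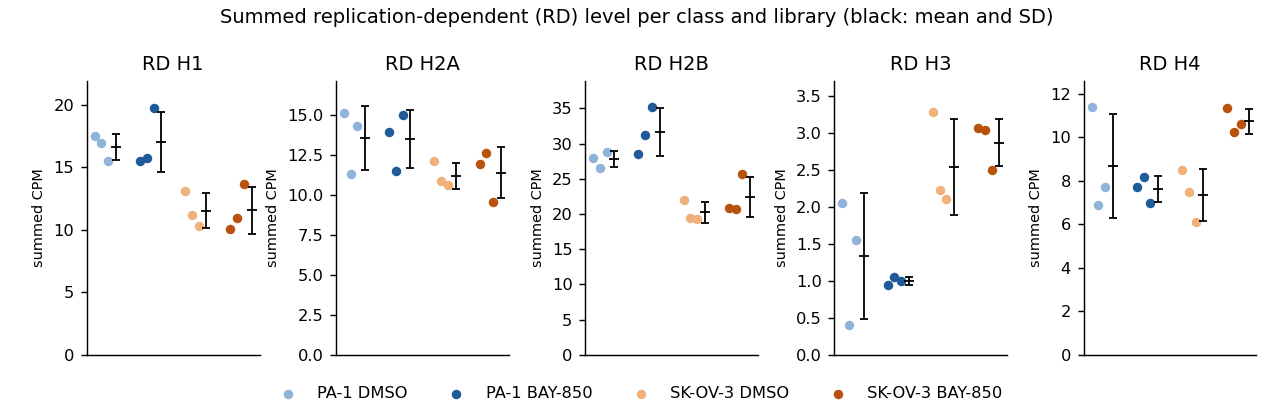
Summed CPM of the replication-dependent (RD) genes of each histone class in each library, coloured by group, with the mean and SD of 3 libraries in black. The H4 sums with BAY-850 in SK-OV-3, 10.2 to 11.4 CPM, lie above those with DMSO, 6.12 to 8.50 CPM, and in the other panels the treated and control libraries of each line overlap.

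Whether the response differed between the lines was tested by an interaction term in a fit of all 12 libraries and 16830 genes. The change was lower in SK-OV-3 for 3 of 7 tested variant genes, against 7.77% of all genes, and higher for 1 of 7, against 6.7%. The differences were -0.33 ± 0.07 for H2AFV (adjusted p = 0.00625 by edgeR), -0.28 ± 0.07 for H2AFY (0.0169), -0.35 ± 0.10 for H2AFX (0.0322) and 0.32 ± 0.08 for H1FX (0.0146). For H2AFZ the difference was -0.14 ± 0.10 (edgeR adjusted p = 0.387), so its fall in SK-OV-3 was not shown to differ from its change in PA-1. For H1F0 it was 0.31 ± 0.10 (edgeR adjusted p = 0.0583).

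The differences of H2AFV and H1FX passed under all alternatives. That of H2AFX did not: library size alone gave an adjusted p of 0.0736, and leaving out each of 7 libraries in turn gave adjusted p-values of 0.0525 to 0.0772. Those libraries were PA-1 DMSO replicates 1, 2 and 3, PA-1 BAY-850 replicates 1 and 3, and SK-OV-3 DMSO replicates 1 and 2. That of H2AFY had an adjusted p of 0.0516 without the first SK-OV-3 BAY-850 library and 0.103 with library size alone, and with the replicate block it was 0.0505 at a difference of -0.28. Without the third SK-OV-3 BAY-850 library the same 4 differences passed, at adjusted p-values of 0.00729 to 0.0491. Of 35 tested replication-dependent genes, edgeR called 0, with 1 lower and 2 higher at an unadjusted p under 0.05. Among all 16830 genes, 2480 were lower and 2271 higher at that unadjusted p. DESeq2 called 0 of the 35 replication-dependent genes and limma-voom 1, HIST1H4J.

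The lines differed far more from each other than treated from control cells. In DMSO, edgeR called 4 of 7 variant genes lower in SK-OV-3, against 38.1% of all genes, and 2 of 7 higher, against 38.3%. H1F0, a linker histone gene known to accumulate in cells that divide little, was lower in SK-OV-3, at 70.0 ± 2.7 against 2042 ± 126 CPM (SD, n = 3 each), or 29.2-fold (edgeR adjusted p = 1.23e-16). H1FX was 3.92-fold lower, at 159.9 ± 8.68 against 626 ± 15.6 CPM (SD, n = 3 each, edgeR adjusted p = 5.57e-14). H3F3B was 1.72-fold lower and H2AFV 1.44-fold lower.

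H2AFY was 2.16-fold higher in SK-OV-3, at 173 ± 2.1 against 80.0 ± 1.8 CPM, and H2AFX 1.64-fold higher, at 114 ± 5.3 against 69.7 ± 0.61 CPM (SD, n = 3 each). H2AFZ was at 464 ± 31.0 against 451 ± 45.6 CPM, with overlapping libraries (log2 fold change 0.04 ± 0.07, edgeR adjusted p = 0.614). Thus the order of the linker histone variants turned over between the lines, H1F0 being above H1FX per kb in PA-1 and below it in SK-OV-3.

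Of 35 tested replication-dependent genes, 4 were lower and 3 higher in SK-OV-3 with DMSO, below the 38.1% and 38.3% of all genes. HIST1H2BK was lower by 1.06 ± 0.13 on the log2 scale, at 8.12 ± 0.85 against 17.0 ± 0.55 CPM. HIST1H1C fell by 0.64 ± 0.16 between the lines and HIST3H2A by 1.11 ± 0.24, at 2.58 ± 0.26 against 5.58 ± 1.89 CPM. HIST1H4J with HIST1H4K as 1 row was at -1.13 ± 0.36 (edgeR adjusted p = 0.00916), where HIST1H4J alone gave -2.32 with overlapping libraries. The call of HIST1H4J alone was lost in DESeq2 and without PA-1 DMSO replicate 1 or 3 or SK-OV-3 DMSO replicate 2 or 3, with adjusted p-values of 0.0698 to 0.144.

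The 3 higher genes had few counts. HIST1H3C had 0 counts in the 3 PA-1 DMSO libraries and 30 over the SK-OV-3 ones, which is at least 9.90-fold higher with 3 counts over the group as the limit. It was at 0 in the treated PA-1 libraries too. HIST1H4H had 0.578, 0.310 and 0.283 CPM in PA-1 against 1.13, 1.03 and 0.985 CPM in SK-OV-3, a log2 fold change of 1.42 ± 0.53. HIST2H2BC, marked as a pseudogene, was higher by 1.10 ± 0.36.

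Genes that serve histones were examined in lists written from general knowledge. Among 29 histone chaperones and deposition factors, BAY-850 lowered 13 and raised 1 in SK-OV-3, against 9.56% and 10.8% of all genes, with a median log2 fold change of -0.17. Leaving out the third BAY-850 library gave 15 lower and 2 higher. In PA-1 3 were lower and 3 higher, against 2.48% and 4.65%, with a median of 0.06. NASP, a chaperone of soluble H3 and H4 and of linker histones, had 129.9 ± 4.30 CPM with DMSO in SK-OV-3 and 98.3 ± 2.81 CPM with BAY-850 (SD, n = 3 each), a log2 fold change of -0.39 ± 0.05 (edgeR adjusted p = 5.23e-04). CHAF1B and CHAF1A, subunits of the assembly factor CAF-1 that places histones behind the replication fork, fell by 0.56 ± 0.09 and 0.26 ± 0.07 there.

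ANP32E, which removes H2A.Z, changed by -0.37 ± 0.07 in SK-OV-3, HJURP, the chaperone of the centromere H3, by -0.27 ± 0.07, and ATRX, a partner in placing H3.3, by -0.27 ± 0.08. The gene that rose was DAXX, the H3.3 chaperone that works with ATRX, at 0.36 ± 0.07 (edgeR adjusted p = 0.00347). HIRA, another H3.3 chaperone, was at 0.04 ± 0.08 and ASF1B at -0.31 ± 0.11 (edgeR adjusted p = 0.745 and 0.0602). ASF1A passed in PA-1, at -0.30 ± 0.07 (edgeR adjusted p = 0.0131), and in SK-OV-3 was at -0.10 ± 0.09 (edgeR adjusted p = 0.479), but passed there without the third BAY-850 library, at -0.22 with an adjusted p of 0.0361. The difference between the lines for ASF1A was 0.19 ± 0.11 (edgeR adjusted p = 0.281).

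For 12 of the 29 the change was lower in SK-OV-3 than in PA-1 by the interaction test, against 7.77% of all genes, and for 0 it was higher, with 1 higher at an unadjusted p under 0.05. By the interaction test with edgeR, NASP differed by -0.47 ± 0.08 (adjusted p = 7.33e-04), CHAF1A by -0.46 ± 0.10, CHAF1B by -0.63 ± 0.15 and ANP32E by -0.37 ± 0.10. Without the third SK-OV-3 BAY-850 library 12 were lower and 1 was higher, and these 4 passed.

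Of 18 tested factors that make and process replication-dependent messages, 4 were lower in SK-OV-3, against 9.56% of all genes, and 0 were higher, against 10.8%, with 1 higher at an unadjusted p under 0.05. Leaving out the third BAY-850 library gave 3 lower and 2 higher. In PA-1 0 were lower, against 2.48%, and 1 higher, against 4.65%, with 3 lower at an unadjusted p under 0.05. NPAT, which switches the clusters on, was at -0.02 ± 0.12 in SK-OV-3 and -0.21 ± 0.09 in PA-1, CASP8AP2 at -0.03 ± 0.14 (-0.18 without the third BAY-850 library) and -0.12 ± 0.09, and SLBP at -0.10 ± 0.05 and -0.10 ± 0.06. None of the 3 passed in either line. SLBP was at 122.7 ± 2.44 CPM in SK-OV-3 and 48.5 ± 1.73 CPM in PA-1 with DMSO (SD, n = 3 each).

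CCNE2, an E-type cyclin that acts on NPAT through CDK2, was the gene of this list that changed most in SK-OV-3, at 12.8 ± 0.582 CPM with DMSO against 6.40 ± 0.673 CPM with BAY-850 (SD, n = 3 each), a log2 fold change of -0.98 ± 0.13 (edgeR adjusted p = 3.74e-04). CDK2 fell by 0.27 ± 0.08 and CCNE1 was at -0.12 ± 0.10 (edgeR adjusted p = 0.436). Of 11 factors of histone message decay, 0 were lower in SK-OV-3, against 9.56% of all genes, and 1 was higher, near the 10.8% of all genes. At an unadjusted p under 0.05, 0 were lower there and 3 higher. In PA-1 edgeR called 0, where 2.48% of all genes were lower and 4.65% higher. At an unadjusted p under 0.05, 5 were lower and 1 higher in PA-1, against 1693 and 1925 of all 15212 genes.

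Of the histone variants outside the 8, edgeR called 0 of 6 tested in PA-1, where 2.48% of all genes were lower and 4.65% higher, and 0 of 5 in SK-OV-3, where 9.56% were lower and 10.8% higher. At an unadjusted p under 0.05, 1 was lower in PA-1 and 0 passed in SK-OV-3. Without the third SK-OV-3 BAY-850 library, the H2A variants among them were at 0.06 ± 0.11 (H2AFJ), -0.15 ± 0.08 (H2AFY2) and 1.36 ± 1.15 (H2AFB2). None of these log2 fold changes passed the test. By the interaction test edgeR called 0 of 7 of the variants outside the 8, against 7.77% of all genes lower and 6.7% higher. Without the third SK-OV-3 BAY-850 library 0 were lower and 1 was higher. That was CENPA, the centromere H3, at a difference of 0.44 ± 0.12 (edgeR adjusted p = 0.0224). The 4 symbols known from germ cells, HIST1H1T, HIST1H2BA, HIST1H2AA and HIST3H3, had too few counts to be tested in any comparison. The 5 genes known to be made also with poly(A) tails were all tested, and edgeR called 0 in either line, with 1 higher in each line at an unadjusted p under 0.05. Of all 15212 genes in PA-1, 1693 were lower and 1925 higher at that unadjusted p. For SK-OV-3 it was 2484 and 2632 of 15348.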

How the data were processed

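RNA sequencing libraries of PA-1 and SK-OV-3 cells, 12 in all, were used. The authors deposited 1 table of expected counts per gene symbol, estimated with RSEM 1.2.15 after alignment with Bowtie2 2.1.0 to hg38, per the submitters' processing notes. RSEM divides reads among transcripts they match, so near-identical genes share an estimate. Samples were grouped by the labels, and 0 columns were left unused.

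Expected counts were rounded and tested in R 4.3.3 with edgeR 4.0.16 (filterByExpr, TMM, quasi-likelihood test, Benjamini-Hochberg adjustment over all tested genes, threshold 0.05). Each line was fitted alone, and the interaction and the DMSO comparison were fitted over all 12 libraries. Other scalings, filters, DESeq2 1.42.0, limma 3.58.1 (voom), trends with GC content and transcript length, a replicate block and leaving out each library were alternatives. The merged copies, the class sums, list genes and copies without the third SK-OV-3 BAY-850 library, and the H4 sum without HIST1H4J and HIST1H4K were added after the data were seen. The fit was tested on simulated data.

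The members and lists were chosen with earlier results of these data known. Genes named in the text were the 8 variants, the 3 most abundant genes of each replication-dependent class, members called in a treatment comparison or interaction with a mean of at least 1 CPM and separate groups, and fixed chaperone and processing genes. Others named were chosen after their values were seen, and the poly(A), pseudogene and copy genes are named for those features.

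GENCODE v29 matched 23899 symbols and left 2576 unmatched. Promoters are RefSeq sequences of GRCh38.p14. Replicates were labelled biological, and pairs of them differed by more than counting noise, with chi-square per degree of freedom from 4.96 to 68.4. Limits for counts of 0 cover counting error only. The standard errors come from the quasi-likelihood fit, which also takes in the spread between libraries. PA-1 and SK-OV-3 were grown in different media, so line and medium cannot be told apart.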

Additional observations from a re-analysis of the deposited data

Results flagged for a closer look

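The response to BAY-850 differed between the lines for 4 variant histone genes by the interaction test in edgeR, and these are listed here for that reason. The difference, SK-OV-3 minus PA-1 on the log2 scale, was -0.33 for H2AFV, -0.35 for H2AFX and -0.28 for H2AFY, whose transcripts were lower with BAY-850 in SK-OV-3. For H1FX, whose transcript was higher there, it was 0.32. What these differences arise from was not tested. Groups of 3 libraries are too small for a test of single outlying libraries.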

How the results depend on the processing

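Of the 18 counts and ratios that answer a comparison, 290 alternative values stayed near the reported one and 30 moved, and 0 called values reversed. In PA-1, 1 variant gene was called lower, against 0, with library size alone, with library size without ribosomal RNA genes and in DESeq2, and 1 replication-dependent gene higher, against 0, with no filter on low counts, in DESeq2 and with the length trend removed, with or without a replicate block. In SK-OV-3, 2 variant genes were called higher, against 1, with at least 10 counts in every library, in DESeq2 and with the GC trend removed, and limma-voom called 1 replication-dependent gene higher. For the interaction, library size alone left 1 variant gene lower, against 3. There 2 variant genes were higher, against 1, with RLE factors, without ribosomal RNA genes, with no filter, with at least 10 counts, in DESeq2 and with the replicate block, and limma-voom called 1 replication-dependent gene higher. Between the lines, 5 replication-dependent genes were higher with no filter and 1 with at least 10 counts, against 3. The summed replication-dependent ratio in PA-1 was -0.0906 without the most abundant genes, against 0.06. The causes of these shifts were not tested.

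Leaving out 1 library gave 0 to 1 replication-dependent genes higher and 0 to 1 variant genes lower in PA-1, and 0 to 1 replication-dependent genes lower or higher and 3 to 4 variant genes lower in SK-OV-3. For the interaction it gave 0 to 1 replication-dependent genes higher, 2 to 3 variant genes lower and 1 to 2 higher. Between the lines it gave 3 to 4 replication-dependent genes lower and 2 to 4 higher. The summed ratio ran from -0.02 to 0.12 in PA-1 and from 0.10 to 0.24 in SK-OV-3. In PA-1 both changes came without BAY-850 replicate 1, and in SK-OV-3 the replication-dependent calls came without DMSO replicate 1 and without BAY-850 replicate 2.

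Same-numbered libraries deviated from their group means with correlations of -0.0417 to 0.0420 in PA-1 and -0.00405 to 0.00179 in SK-OV-3, over 3 pairs each, so the numbers were not taken as pairing. With the replicate block, 4 variant genes were lower and 1 higher in SK-OV-3, and the interaction had 2 lower and 2 higher, with H2AFY lost at an adjusted p of 0.0505. Depth limits the replication-dependent genes, of which 13 of 73 had a mean of at least 1 CPM.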
